A study of Arabidopsis thaliana with 3 samples.

Results

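The genes described here are 10 Arabidopsis genes of phosphate uptake, sensing and sparing, taken by locus, with earlier results of these data known: PHT1;1 (AT5G43350), PHT1;4 (AT2G38940), PHO1 (AT3G23430), PHR1 (AT4G28610), SPX1 (AT5G20150), SPX3 (AT2G45130), PHO2 (AT2G33770), PS2 (AT1G73010), SQD2 (AT5G01220) and MGD3 (AT2G11810). Each had 1 probe on the array, all 10 passed the filter on dim probes, and they make up 10 of the 25665 loci on the array. They were measured in whole seedlings, 10 days old, of the Col-0 background. One genotype carried 35S:AtIBH1-SRDX and the other was wild type. IBH1, an atypical bHLH factor, restrains the lengthening of cells, SRDX is a short plant repression domain, and the 35S promoter drives the fusion throughout the plant. The sources used here do not give the number of independent transgenic lines. All seedlings grew on MS agar with 1% sucrose at 23 °C in 16 h of light and 8 h of dark, so that no group was starved of phosphate by the labels.

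Plants take up phosphate as an ion through PHT1 transporters of the root plasma membrane, and PHO1 exports it into the xylem toward the shoot. The MYB factor PHR1 activates starvation genes by binding a short promoter element. SPX proteins, some of them encoded by targets of PHR1, bind PHR1 when inositol pyrophosphates signal that phosphate is plentiful. PHO2, a ubiquitin-conjugating enzyme, lowers the amount of PHT1 and PHO1 protein, and is itself silenced by miR399, which the non-coding RNAs IPS1 and AT4 hold back by mimicking its target. Starved plants also make phosphatases and ribonucleases and replace membrane phospholipids by sulfolipid and galactolipids.

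RNA of both genotypes was hybridised together on 3 Agilent 2-colour arrays, 1 for each biological replicate. IBH1-SRDX was in Cy3 on arrays 1 and 3 and in Cy5 on array 2, so array 2 and the swapped dye cannot be told apart. Between 58.8% and 63.5% of spots were well above background in a channel and 0 spots were saturated, and the number of arrays limits the precision. The log2 ratios of the arrays correlated with r between 0.808 and 0.884 across loci, which are not independent replicates. In RNA carrying the IBH1-SRDX label the log2 ratio over wild type was -0.71 ± 0.09 (SE, n = 3) for the IBH1 probe, which goes against an overexpressor, and 8.12 ± 0.11 for that of SUPERMAN, the gene from which SRDX was derived. The sources used here do not place the IBH1 probe along its gene, so every direction below rests on the labels. Whole seedlings hold many cell types. Most of the root tissue and shoot photosynthesis markers were lower in IBH1-SRDX, while no root hair marker was called lower. Of all tested loci, 19.9% were called lower and 18.6% higher. Of 13 root tissue markers, 8 were lower, 1 higher and 4 not called. Their summed linear intensity was 13.3 to 15.7 kilounits in IBH1-SRDX against 25.1 to 26.1 in wild type. NRT2.1, a nitrate transporter gene and the brightest of them in wild type, weighs most in the wild-type sum. Its log2 ratio was -1.50 ± 0.20. CASP5, an endodermal gene of this list, had no array with an IBH1-SRDX signal well above background. The marker called higher was MYB36, at a log2 ratio of 0.44 ± 0.14 (adjusted p = 0.0410 in limma). SCR, PLT1, PLT2 and IRT1 were not called. Of 9 tested shoot photosynthesis markers, 7 were lower and 2 not called. Their summed level was 401 to 451 kilounits in IBH1-SRDX and 712 to 748 in wild type, over the 7 markers measured on every array. Root hair markers had 3 of 9 higher, 0 lower and 6 not called, with summed levels of 7.73 to 9.41 and 7.7 to 7.87 kilounits. The part of these markers in the results below was not tested, and fewer cells of a type cannot be told apart from less RNA per cell.

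In IBH1-SRDX seedlings, 5 of the 10 genes rose (PS2, SPX1, PHO1, SPX3 and PHR1), 3 fell (PHT1;1, PHO2 and SQD2), and PHT1;4 and MGD3 did not pass the test. That is 8 called genes of 10, where 38.4% of all loci were called. SPX3 entered the test through its IBH1-SRDX signal alone, and with both genotypes required above background it had no value and 4 genes were higher. Calls were made at an adjusted p below 0.05 in limma, with Benjamini-Hochberg adjustment over 19875 loci, of which 18.6% were called higher and 19.9% lower. The rises of PS2 and SPX1 were over 2-fold, and 3.09% of all loci were called and at least 2-fold higher. None of the 10 genes was called at least 2-fold lower, as 2.13% of loci were. The median log2 ratio of the 10 genes was 0.16, with a range from -0.56 to 1.62, and that of all tested loci was 2.11e-06. Ratios had 1 sign on all 3 arrays for 8 of the 10 genes, as for 66.2% of the loci measured on every array. Unless stated, each value below is the log2 ratio (IBH1-SRDX to wild type) ± the SE of limma, n = 3. That SE draws each gene's variance toward the pooled one.

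**Figure D1:**
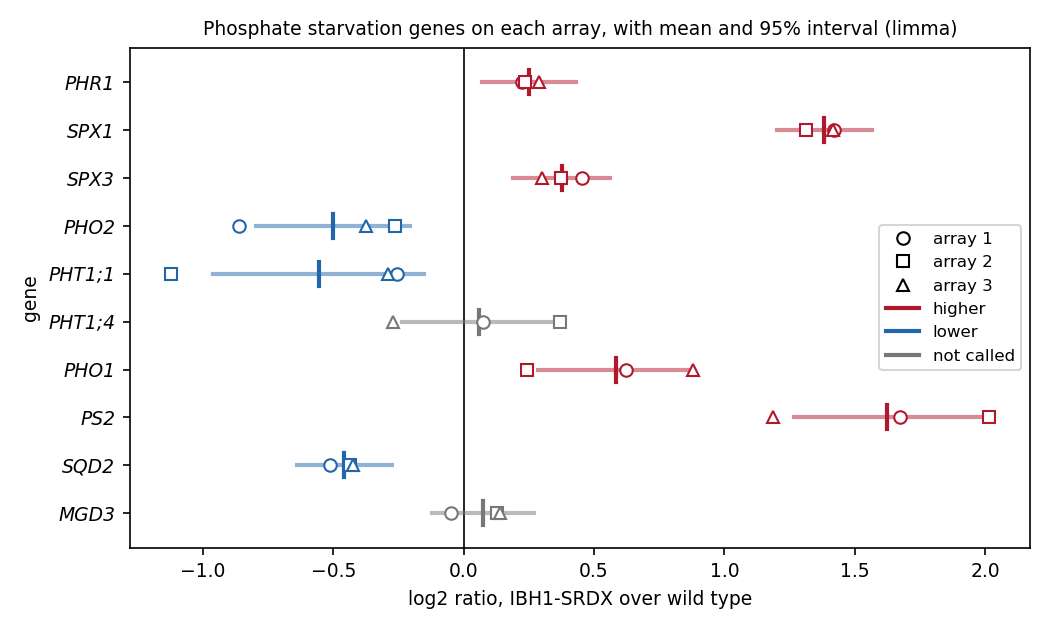
Log2 ratio of IBH1-SRDX over wild type (x axis) for the 10 genes (y axis). Open symbols are the 3 arrays, the vertical tick is the mean and the bar its 95% interval in limma; red, blue and grey mark genes called higher, called lower and not called. SPX1 and PS2 lie to the right of the other 8 genes on every array, and the arrays of PHT1;1, PHT1;4, PHO1, PHO2 and PS2 are spread the widest.

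Among the regulators, PHR1, the central activator, changed little. Its normalised log2 intensity was 10.76, 10.85 and 10.89 in IBH1-SRDX on arrays 1, 2 and 3, and 10.54, 10.62 and 10.60 in wild type. All 3 IBH1-SRDX levels lay above all 3 wild-type levels, though by a small step. Levels did not overlap between genotypes for 4 of the 10 genes with IBH1-SRDX higher and for 3 with IBH1-SRDX lower, against 26.7% and 27.3% of loci, or 54% in either direction. The ratio of PHR1 was 0.25 ± 0.08 (1.19-fold, adjusted p = 0.0386 in limma). Its call was lost without replicate 1 (adjusted p = 0.167) or replicate 3 (adjusted p = 0.202).

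SPX1, which encodes a nuclear inhibitor of PHR1 and is itself a PHR1 target, showed the most even response of the called genes with a large change. The SPX1 level was 12.56, 12.74 and 12.58 in IBH1-SRDX and 11.14, 11.43 and 11.16 in wild type. The lowest IBH1-SRDX value stood more than 1 log2 unit above the highest wild-type value. Its array ratios were 1.42, 1.31 and 1.42, with a mean of 1.38 ± 0.08 (2.61-fold, adjusted p = 6.60e-05 in limma), and 319 loci of 19875 had a higher ratio. The call stood under all 11 alternatives of processing and left-out replicates, with ratios from 1.27 to 1.42.

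SPX3, a close relative of SPX1 and one of the most strongly starvation-induced SPX genes, was dim. Its level was 6.69, 7.08 and 6.89 in IBH1-SRDX and 6.24, 6.71 and 6.59 in wild type. The genotypes overlapped because arrays differed in level, while on each array IBH1-SRDX was the higher. The ratios of 0.45, 0.38 and 0.30 gave a mean of 0.38 ± 0.08 (adjusted p = 0.00966 in limma). Wild type gave a signal clear of background on 1 of 3 arrays, so the size of the SPX3 change is poorly known. With the Feature Extraction log ratio, which adds no offset to dim spots, it was 1.18 (adjusted p = 0.00662), and without replicate 1 the call was lost (adjusted p = 0.0856).

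PHO2, the enzyme that lowers PHT1 and PHO1 protein, fell. Its level was 10.79, 11.22 and 11.29 in IBH1-SRDX against 11.66, 11.49 and 11.66 in wild type. The groups did not overlap, and array 1 was the lowest of the IBH1-SRDX values. The ratios were -0.86, -0.26 and -0.37, with a mean of -0.50 ± 0.12 (adjusted p = 0.0187 in limma). Without replicate 1 the ratio was -0.32 and the call was lost (adjusted p = 0.103).

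The transport genes went in different directions. PHT1;1, a main phosphate importer of the root, had a level of 14.79, 14.13 and 14.66 in IBH1-SRDX and 15.05, 15.25 and 14.95 in wild type. All IBH1-SRDX values were the lower, with array 2 the farthest apart. The ratios of -0.25, -1.12 and -0.29 gave a mean of -0.56 ± 0.17 (1.47-fold lower, adjusted p = 0.0400 in limma). Without replicate 2, the array with swapped dyes, the ratio was -0.27 (adjusted p = 0.0340). PHT1;6, PHT1;1, PHT1;3 and PHT1;2 follow each other in this order on chromosome 5 in the TAIR10.1 gene table. PHT1;1 and PHT1;2 are close in sequence, so their probes may share signal.

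PHT1;4, another root plasma membrane importer, had IBH1-SRDX levels of 9.83, 10.02 and 9.44 and wild-type levels of 9.75, 9.65 and 9.71. The wild-type values lay close together inside the range of the IBH1-SRDX values. Its ratios of 0.08, 0.37 and -0.27 differed in sign (mean 0.06 ± 0.12, 95% interval -0.24 to 0.35, adjusted p = 0.742 in limma).

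PHO1, the xylem exporter, rose. Its level was 11.95, 11.66 and 12.20 in IBH1-SRDX and 11.32, 11.41 and 11.32 in wild type. The groups did not overlap, but the step was smallest on array 2. The ratios were 0.62, 0.24 and 0.88, with a mean of 0.58 ± 0.12 (adjusted p = 0.0105 in limma).

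**Figure D2:**
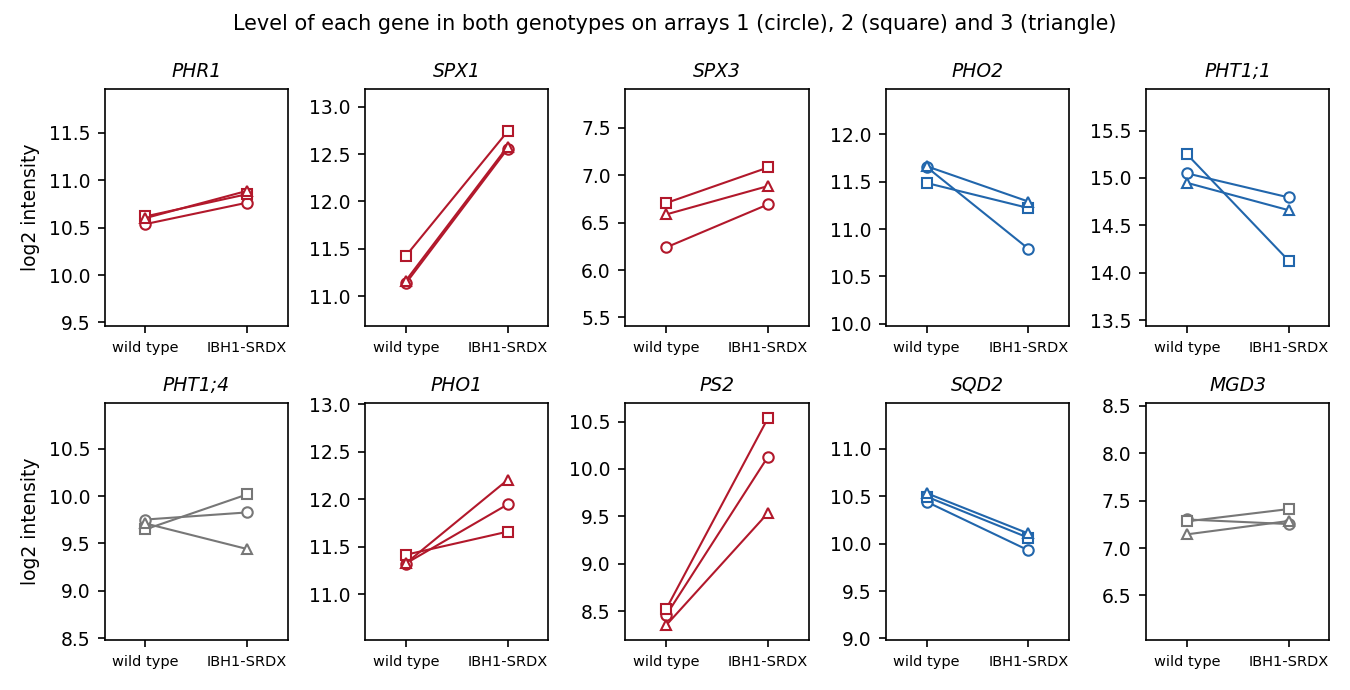
Normalised log2 intensity (y axis, of the same span in each panel) of the 10 genes in wild type and IBH1-SRDX. Lines join the 2 channels of an array (circle, square and triangle for arrays 1, 2 and 3), and levels are not comparable between panels because probes differ. In PS2, PHO1 and PHT1;4 the wild-type points lie together while the IBH1-SRDX points spread.

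The enzymes likewise split. PS2, a phosphatase of the haloacid dehalogenase superfamily with activity on pyrophosphate and known as an early starvation transcript, had the largest mean change of the 10 genes. Its level was 10.13, 10.54 and 9.54 in IBH1-SRDX and 8.46, 8.52 and 8.35 in wild type. The lowest IBH1-SRDX value, on array 3, was more than 1 log2 unit above every wild-type value. The ratios of 1.67, 2.01 and 1.18 gave a mean of 1.62 ± 0.15 (3.08-fold, adjusted p = 0.000386 in limma), and 229 loci had a higher ratio. The call stood under all 11 alternatives, with ratios from 1.24 to 1.86.

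By the distance of their 3 array ratios, the loci nearest to PS2 were AT2G24600 (distance 0.157 log2 units), AT1G24140 (0.164) and PLA2A (AT2G26560, 0.185). These had mean ratios of 1.68 ± 0.13, 1.71 ± 0.16 and 1.57 ± 0.16, also highest on array 2 and lowest on array 3. With 3 arrays and 19875 loci such neighbours are a description.

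SQD2, which makes the sulfolipid that can stand in for phospholipids, fell evenly. Its level was 9.93, 10.06 and 10.11 in IBH1-SRDX and 10.44, 10.50 and 10.53 in wild type. The groups did not overlap and each was tight. The ratios were -0.51, -0.43 and -0.43 (mean -0.46 ± 0.08, 1.37-fold lower, adjusted p = 0.00402 in limma).

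MGD3, a galactolipid synthase gene induced by starvation, stood at 7.25, 7.41 and 7.29 in IBH1-SRDX and at 7.30, 7.28 and 7.14 in wild type. The values overlapped. Its ratios of -0.05, 0.13 and 0.14 averaged 0.07 ± 0.08 (95% interval -0.12 to 0.27, adjusted p = 0.510 in limma).

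For 7 of the 10 genes the level varied more between arrays in IBH1-SRDX than in wild type. The SD was 0.50 against 0.09 for PS2, 0.35 against 0.15 for PHT1;1, 0.27 against 0.05 for PHO1 and 0.27 against 0.10 for PHO2. SPX1 (0.10 against 0.16), SPX3 (0.19 against 0.24) and MGD3 (0.08 against 0.09) were the exceptions. Over all loci the IBH1-SRDX level varied more in 71.0% of cases, with median SDs of 0.116 and 0.0743, so the share among the 10 genes was that of the array.

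Of the 75 other genes of phosphate transport, sensing, scavenging and lipid exchange, 61 were tested, of which 25 were higher, 6 lower and 30 not called. That is 41.0% higher and 9.84% lower, beside 18.6% and 19.9% of all loci, with a median of 0.15. These lists too were drawn up with earlier results known. The summed level of the 75 genes was 205 to 219 kilounits in IBH1-SRDX and 168 to 177 in wild type. PHT3;1, which was not called, was the brightest of them. ITPK1 read 6.45 in IBH1-SRDX and 6.79 in wild type on array 2, against 12.67 and 12.70 on array 1. That lowers the sums of both genotypes on array 2. The summed level of the 10 genes was 36.1 to 45.2 in IBH1-SRDX and 44.2 to 51.8 in wild type, and these 2 ranges overlap. PHT1;1, the brightest of the 10 genes, weighs most in both sums. Its log2 ratio was -0.25, -1.12 and -0.29 on arrays 1, 2 and 3. The sums therefore do not show a fall of the 10 genes as a set, of which 5 were called higher and 3 lower. Of the 14 genes not tested, 10 were not well above background in either genotype on any array.

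**Figure D3:**
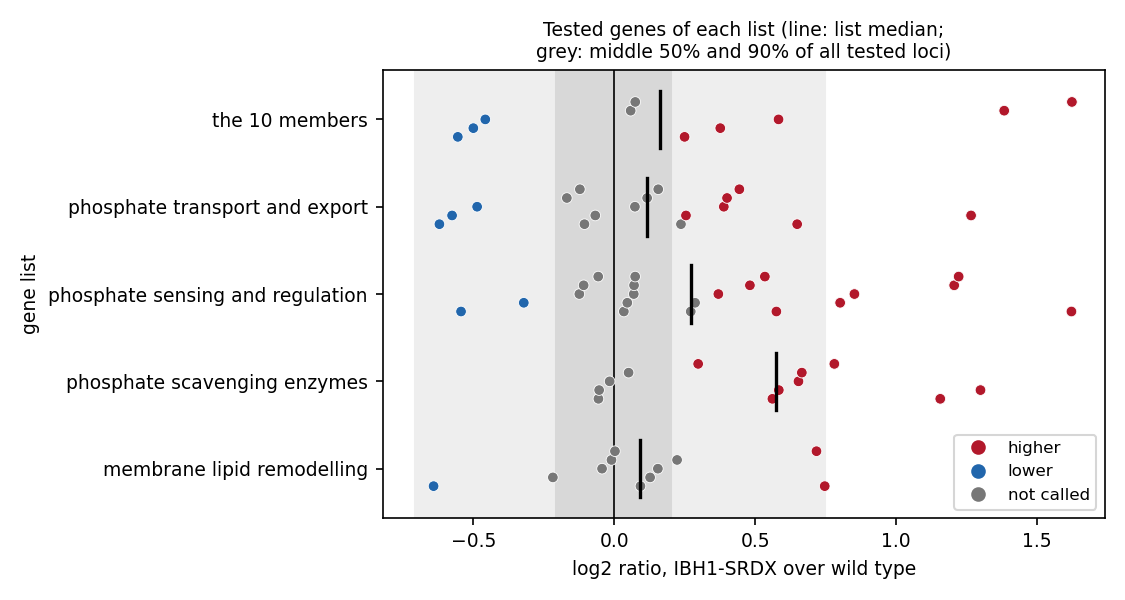
Log2 ratio of IBH1-SRDX over wild type (x axis) for the tested genes of each list (y axis), with red, blue and grey points for genes called higher, called lower and not called. Black lines are list medians, and the darker and lighter grey bands reach from the 25th to the 75th and from the 5th to the 95th percentile of all tested loci. The scavenging enzymes have a median of 0.57 and no gene called lower.

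Of 12 tested genes of phosphate scavenging, 8 rose (66.7%) and 4 were not called, beside 18.6% of all loci called higher. In limma 0 fell (0 also at an unadjusted p below 0.05), beside 19.9% of all loci called lower. The median of the 12 genes was 0.57 (0.57, 0.59 and 0.37 on the arrays). G3PP1, a glycerol-3-phosphate permease, stood at 1.14, 1.44 and 1.31 on the arrays (mean 1.30 ± 0.09, adjusted p = 0.000124 in limma). The purple acid phosphatase gene PAP17, a classic starvation transcript, stood at 1.19, 1.31 and 0.97 (mean 1.16 ± 0.09). The calls of G3PP1 and PAP17 stood under all 11 alternatives. The ribonuclease genes RNS2 and RNS1 rose by 0.65 ± 0.08 and 0.56 ± 0.08. PECP1, a phosphatase related to PS2, stood at 0.30 ± 0.09 (adjusted p = 0.0407), a call lost without replicate 1 (adjusted p = 0.108) or replicate 2 (adjusted p = 0.0797).

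Of 21 tested sensing and regulatory genes, 9 rose (42.9%, beside 18.6% of all loci), 2 fell (9.52%, beside 19.9%) and 10 were not called. Their median was 0.27. AT4, the non-coding RNA that mimics the miR399 target, stood at 1.19, 1.36 and 1.12 (mean 1.22 ± 0.08, adjusted p = 0.00013 in limma). Its relative IPS1 was too dim to be tested, with no array well above background. WRKY45, a factor known to activate PHT1;1, stood at 1.01, 1.90 and 1.96 (mean 1.62 ± 0.18), and LPR2, a multicopper oxidase gene of the root response to low phosphate, at 1.33, 1.52 and 0.77 (mean 1.21 ± 0.14). PHL1, the close partner of PHR1, rose by 0.57 ± 0.08 (adjusted p = 0.00211).

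The other SPX genes differed from SPX1 in their values. SPX4 stood at -0.28, -0.33 and -0.35 (mean -0.32 ± 0.08, adjusted p = 0.0153 in limma), a call lost without replicate 1 (adjusted p = 0.0806) or replicate 3 (adjusted p = 0.0752). SPX2 was not called at 0.27 ± 0.09 (adjusted p = 0.0513). NLA, the ubiquitin ligase that acts on PHT1 proteins beside PHO2, had ratios of 0.09, -0.32 and 0.37 and was not called (adjusted p = 0.807). The differences between SPX genes were not tested.

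Of 17 tested transport genes 6 rose (35.3%, beside 18.6% of all loci), 3 fell (17.6%, beside 19.9%) and 8 were not called. Their median was 0.12. PHT1;2, the close copy of PHT1;1, fell at -0.37, -0.89 and -0.60 (mean -0.62 ± 0.11, adjusted p = 0.00508 in limma). PHT1;3, between them on the chromosome, was likewise too dim to be tested. PHT5;3, of the vacuolar phosphate importer family, stood at -0.58 ± 0.09 and the mitochondrial carrier gene PHT3;3 at -0.49 ± 0.08. Another mitochondrial carrier gene, PHT3;2, rose by 1.27 ± 0.20, with 1.09, 1.92 and 0.79 on the arrays. PHT1;5, which moves phosphate between organs, rose by 0.65 ± 0.11, but was above background in wild type on 2 of 3 arrays, and 5 transport genes were higher with both genotypes required above background. For the dim probes of PHT3;2 and PHT1;5 the Feature Extraction ratios were 2.46 and 1.53. PHO1;H1, a relative of PHO1, stood at 0.40 ± 0.09 (adjusted p = 0.0143, and 0.107 without replicate 1). PHF1, needed for PHT1 proteins to leave the endoplasmic reticulum, stood at 0.25 ± 0.08 (adjusted p = 0.0462), a call lost without replicate 1 (adjusted p = 0.196) or replicate 3 (adjusted p = 0.269).

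Of 11 tested lipid exchange genes 2 rose (18.2%, beside 18.6% of all loci), 1 fell (9.09%, beside 19.9%) and 8 were not called. Their median was 0.09. SQD1, which makes the head group that SQD2 transfers, rose by 0.75 ± 0.10 (0.63, 0.64 and 0.97 on the arrays), while SQD2 fell. PLDZETA2, a phospholipase D gene, rose by 0.72 ± 0.09. MGD2, of the same starvation-induced type as MGD3, fell by 0.64 ± 0.09 (adjusted p = 0.00187 in limma). The galactolipid synthase genes DGD1 (-0.01 ± 0.09) and DGD2 (0.13 ± 0.09) were not called.

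**Figure D4:**
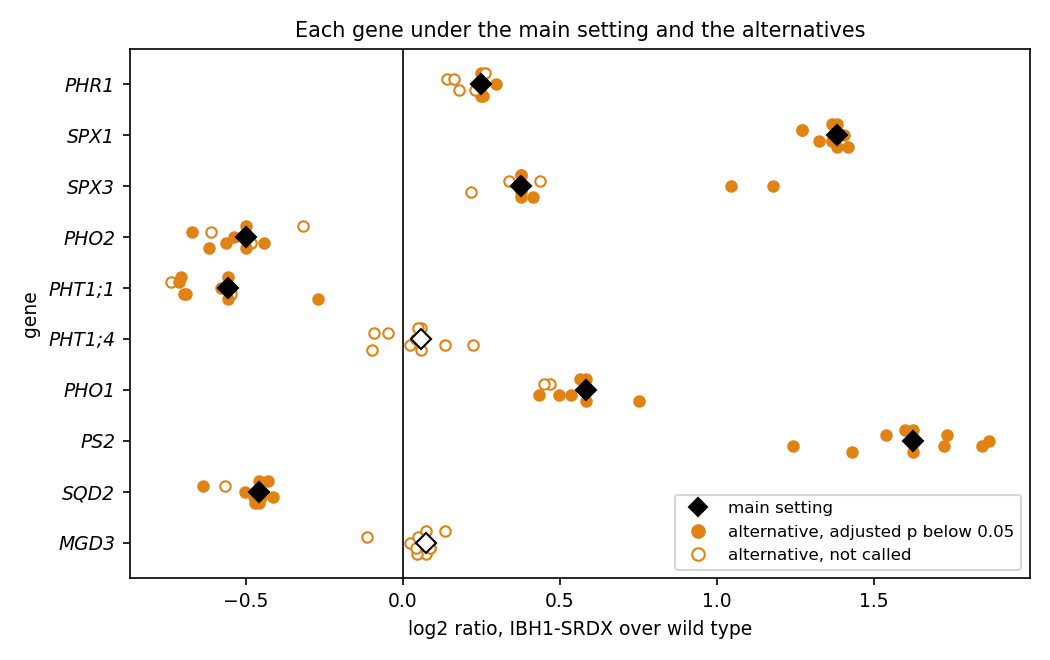
Log2 ratio of IBH1-SRDX over wild type (x axis) of the 10 genes (y axis) under the main setting (black diamonds) and the alternatives (orange circles); filled symbols have an adjusted p below 0.05. All circles of SPX1 and PS2 are filled, those of PHT1;4 and MGD3 are all open, and the other genes have both kinds.

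Of the 8 called genes, SPX1 and PS2 were called under every alternative run. Median centring in place of loess ended the calls of PHT1;1, SPX3, PHO1, PHO2, PHR1 and SQD2 without changing their direction, and it left 591 loci higher and 674 lower in all. The median log2 ratio of all loci was then -0.0963, against 2.11e-06 with loess, and the ratios given next are not relative to it. They were -0.74 for PHT1;1, -0.61 for PHO2 and -0.57 for SQD2, each farther from 0 than with loess. PHO1 at 0.47 and PHR1 at 0.14 were nearer to 0. A lower median of all loci goes with both kinds of move, and whether any gene moved beyond it was not tested. SPX3, at 0.44, moved the other way, to a higher ratio than with loess.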

How the data were processed

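Each deposited scanner file gives, per the file headers, the median pixel intensity of a spot and of its surroundings, and a log10 ratio of Cy5 over Cy3. Feature Extraction 9.1.3.1 wrote them, per the submitters' processing notes. In the deposited series table the values are ratios on the natural log scale, as found by comparison: its slope on the scanner ratios was 1.00 on each array, less a constant of 0.0929. Its column medians were 0.00195, -0.225 and 0.00455, and how the constant was set stays unknown. Local backgrounds marked as outliers (273 to 799 per array and channel) took the array's median. Intensities were corrected by normexp (offset 50) and normalized within arrays by loess (weight 0 for control spots), and 91 to 189 outlier spots per array were left out. Ratios were turned by the labels' dyes. A probe entered the test if either genotype exceeded background clearly on all 3 arrays, and the brightest stood for a locus measured on at least 2 arrays. Log2 ratios were tested against 0 with limma 3.58.1 in R 4.3.3 (2 residual and 4.88 prior degrees of freedom). The smallest exact two-sided p of a sign-flip test here is 0.25. Levels are per channel after Aquantile. In simulated data of 19615 loci the test recovered 75 of 100 added changes of 1 log2 unit. It recovered 93 of 100 changes of 2 log2 units, with 7 false calls. Smaller changes were not simulated. The simulated noise was normal, independent between arrays and free of dye bias. Far fewer loci were changed in it than the 38.4% called in the data. The recovered shares and false calls therefore need not hold for the data themselves. With 2 of 3 arrays in 1 dye orientation, 33.3% of a dye bias stays in the mean.

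The 10 members and all lists were chosen with earlier results of these data known. Beside the members, each other list's 4 called genes with the smallest adjusted p were named, and others by role. All 117 listed loci were found in the TAIR10.1 gene table. Coordinates and sequences were not used here. Alternatives were the background, the normalization, the filter, a dye term, the probe rule, the deposited table and leaving out each replicate.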

Additional observations from a re-analysis of the deposited data

How the results depend on the processing

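Of the 34 single-gene ratios tested, no called ratio changed direction under any of the 11 alternatives, of which SPX3 and PHT1;5 had no value where both genotypes had to be above background. That filter left 4 of the 10 genes higher and 3 lower. Counts given in pairs are genes called higher and lower by limma, and the cause of the changes was not tested. With median centring the pairs were 2 and 0 for the 10 phosphate genes (1 lower at an unadjusted p below 0.05), 6 and 0 for the 75 others (3 lower unadjusted), 1 and 0 for transport (2 lower unadjusted), 3 and 0 for sensing (0 lower unadjusted), 0 and 0 for lipids (1 and 1 unadjusted) and 591 and 674 for all loci. Scavenging genes then had 2 higher. With outlier backgrounds kept they were 3 and 1 for the 10 genes, 12 and 2 for the 75 others and 1141 and 1918 for all loci. Transport then had 0 higher (5 unadjusted), sensing 5 higher and 0 lower (2 unadjusted), and lipids 1 higher and 0 lower (1 unadjusted). With the deposited table, whose median over all loci was -0.146, 3 of the 10 genes were higher, 2 lipid genes lower, and 2480 and 6369 of all loci. Relative to that median PHO1 stood at 0.59 and PHR1 at 0.31. That table ended the calls of PHO1 and PHR1, and keeping outlier backgrounds those of PHT1;1, SPX3, PHO2 and PHR1.

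Leaving out 1 replicate gave 3 to 5 higher and 2 to 3 lower of the 10 genes, 22 to 24 and 5 to 7 of the 75 others, and 2319 to 3883 and 2490 to 4294 of all loci. The lowest of these, without replicate 1, were 3 of the 10 genes and 2319 and 2490 loci. Sensing genes had 1 to 2 lower, with 1 without replicate 1 or replicate 3, and lipid genes 1 to 2 lower, with 2 without replicate 2. Transport and scavenging genes had 4 to 6 and 7 to 8 higher. The uncalled PHT1;4 and MGD3 changed sign under 3 alternatives and 1. The test is itself paired, since each ratio sets both genotypes of 1 replicate against each other on 1 array. No paired analysis was possible beyond that one, because a replicate block would take up every ratio.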
